A study of Mus musculus with 12 samples.

Results

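The 39 genes described here, out of 11834 in the deposited table, encode subunits of the constitutive proteasome, some of its assembly chaperones, and activators and an inhibitor. All are called subunit genes here for short. They were taken by symbol, as all genes named Psma to Psmf followed by a number, leaving out the immunoproteasome genes Psmb8, Psmb9 and Psmb10. GENCODE M21 annotates 41 such protein-coding genes in the mouse, and the other 2, Psma8 and Psmb11, were not analysed here. All 39 entered the test, and the sources used here do not say how the authors chose which genes to list. PolyA RNA was sequenced from the lactating mammary gland of 7 mice with both copies of Btn1a1 disrupted (Btn1a1-/-, KO) and 5 wild-type mice (WT), 1 library per mouse, all of strain C57BL/6 and in lactation 1. Of the KO glands 5 were taken on lactation day 10, KO replicate 3 on day 8 and KO replicate 4 on day 11. Of the WT glands 3 were taken on day 10, WT replicate 2 on day 9 and WT replicate 3 on day 11. Mutant mice came from matings of heterozygous pairs and wild-type mice from harem cages, and the labels name 2 feeds without saying which mouse had which. Genotype, line of descent and feed therefore cannot be told apart. With 1 library per mouse, the p-values measure the spread between these mice.

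The proteasome is the protease of the cytosol and nucleus that degrades proteins marked with ubiquitin chains. Its 20S core is a barrel of outer alpha rings, which gate the entrance, and inner beta rings, which hold the catalytic subunits. The 19S cap binds the ubiquitin chain, removes it, and unfolds the substrate with a ring of ATPases. In a secretory tissue such as the lactating gland it also disposes of proteins that fail to fold in the endoplasmic reticulum. Because the subunits work in fixed ratios, their genes are known to be regulated together, with the transcription factor encoded by Nfe2l1 as a main activator when proteasome activity is short.

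The genotype labels and the tissue were checked first. Btn1a1 averaged 5.63 ± 0.30 log2 CPM (counts scaled to a common library size) in KO glands (SD, n = 7) and 11.07 ± 0.09 in WT glands (SD, n = 5), and each KO library lay below each WT library. Of the 9 markers of luminal secretory cells all 9 had a row, and the milk protein genes Csn2 and Wap stood at 17.27 and 16.54 log2 CPM in all 12 libraries. Those values are identical because, in the deposited table, a given rank has nearly the same value in each library. None of 10 markers of T and NK cells had a row, and 3 of 7 markers of B and plasma cells did. Skeletal muscle markers, 15 of 15 with a row and 0 called, deviated from their WT mean by -1.12 to 2.83 log2 in KO libraries and by -1.65 to 0.96 in WT libraries, and 5 of 7 KO libraries lay above all WT libraries. Macrophage markers, 11 of 11 with a row and 4 called higher in KO, deviated by 0.01 to 0.65 in KO libraries and by -0.15 to 0.21 in WT libraries. Basal and myoepithelial markers, 8 of 8 with a row and 4 called higher in KO, deviated by -0.06 to 0.57 in KO libraries and by -0.21 to 0.19 in WT libraries. Of the luminal secretory markers 2 of 9, Krt8 and Epcam, were called higher in KO. The mean of the 9 deviated by 0.05 to 0.22 in KO libraries and by -0.06 to 0.06 in WT libraries. Csn2 and Wap, the same in all libraries, added 0.00 to this mean. Elf5 and Csn3 were lower in KO, with log2 changes of -0.25 and -0.13 (limma, adjusted p = 0.114 and 0.744). Lalba, Glycam1 and Krt18 were higher, at 0.19, 0.35 and 0.12, and were not called. Over all genes 4.84% were called higher in KO. The part of these cells in the proteasome values was not tested, other than by a fit with the muscle score as a covariate. In whole glands, fewer cells of a type and less RNA per cell cannot be told apart.

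The changes of proteasome genes between KO and WT glands were small. Of the 39 subunit genes 1 rose in KO glands (Psmb6, a catalytic subunit), 0 fell and 38 did not pass, with adjusted p from 0.0537 to 0.994 (limma, Benjamini-Hochberg over all genes). The same threshold called 9.36% of all 11834 genes, with 4.84% higher and 4.52% lower in KO glands. At an unadjusted p under 0.05, 10 of the 39 members were higher and 1 of the 39 was lower in KO. Over all 11834 genes 1443 (12.2%) were higher and 1702 (14.4%) lower. The members' share was thus above that of all genes for higher and below it for lower. No member had all KO libraries above all WT libraries or all below. Over all genes 5.43% did, 2.69% with KO above and 2.74% with KO below. Among 39 genes, counts of 0 or 1 lie near such shares, both here and for the calls at the adjusted threshold. The fitted log2 changes ran from -0.24 to 0.37. They were above 0 for 33 of 39 members (84.6%), against 44.6% of all genes, and their median was 0.12 against -0.03 over all genes. The members vary together between libraries, so this count is not 39 separate observations. Without KO replicate 4 the median was 0.07, and with the muscle score as a covariate it was 0.08. In the authors' deposited table the same threshold also gave 1 member higher and 0 lower, against 4.55% and 5.09% of all genes.

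**Figure D1:**
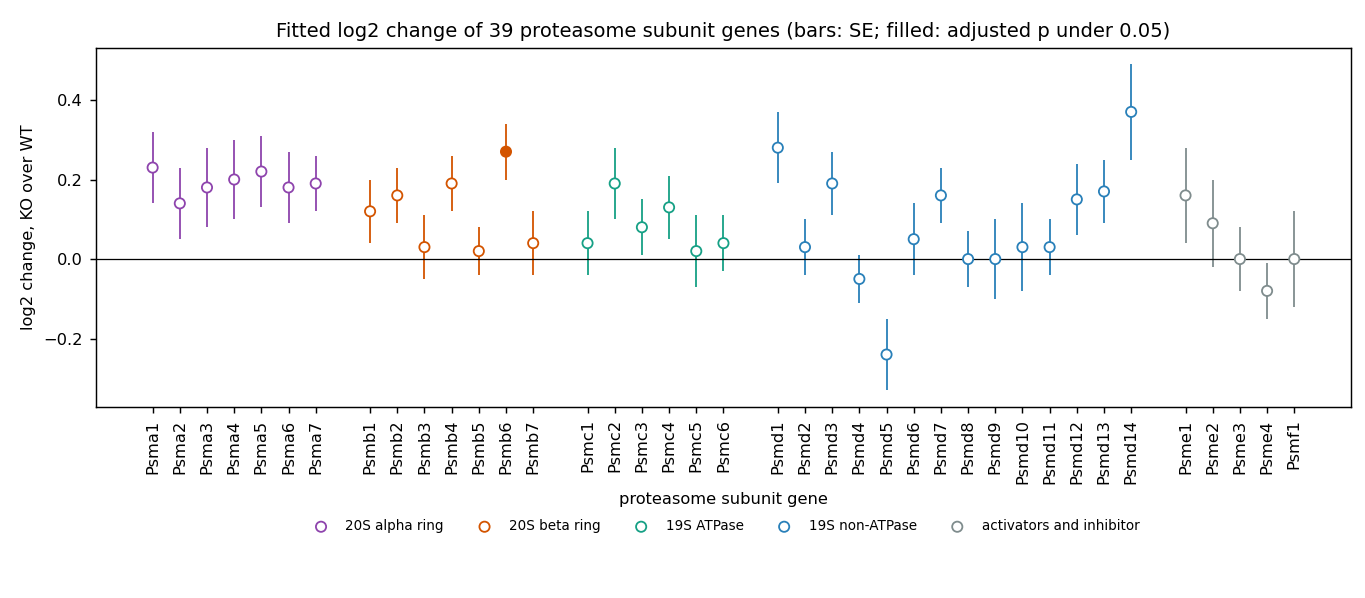
Fitted log2 change of each of the 39 subunit genes, KO over WT, on the vertical axis, grouped by sub-complex along the horizontal axis. Points are estimates, bars are standard errors, and the filled point marks Psmb6, the 1 gene called; alpha ring genes lie between 0.14 and 0.23, while Psmd5 lies lowest at -0.24 and Psmd14 highest at 0.37.

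The beta ring holds 7 constitutive members, of which 1 rose in KO and 0 fell, against 4.84% and 4.52% of all genes. Psmb6, the catalytic subunit of caspase-like activity, lies on chromosome 11 from 70525367 to 70527858 (mm10, GENCODE M21). Its level in KO libraries had a lowest value of 4.73, a median of 4.87 and a highest of 5.04 log2 CPM, and the 5 WT libraries held 4.48, 4.76, 4.53, 4.62 and 4.57. KO libraries were high in 6 of 7 cases, above all WT libraries, and the lowest KO library (replicate 3) lay just under the highest WT library (replicate 2). The change was 0.27 log2 (SE 0.07, adjusted p = 0.025 by limma), or 1.21-fold. The call ended without WT replicate 1 (adjusted p = 0.0726), WT replicate 3 (0.0602) or WT replicate 5 (0.0549), with day 10 libraries alone (0.0613) and with the muscle score as a covariate (0.136), while the change stayed between 0.23 and 0.32 in all alternatives tried. GENCODE M21 annotates 2 pseudogenes named after it (Psmb6-ps and Psmb6-ps2), so its reads may be split with near-identical copies.

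Psmb5 and Psmb7, the catalytic subunits of chymotrypsin-like and trypsin-like activity, did not pass. Psmb5 held 4.18 at the lowest, 4.31 at the median and 4.36 at the highest in KO libraries, and 4.23, 4.39, 4.31, 4.25 and 4.19 log2 CPM in WT libraries. Its groups overlapped almost fully, with a log2 change of 0.02 (SE 0.06, adjusted p = 0.855 by limma). Psmb7 held 4.92 at the lowest, 5.07 at the median and 5.38 at the highest in KO libraries, and 5.11, 5.09, 5.01, 5.22 and 4.96 log2 CPM in WT libraries. Its groups overlapped as well, and 2 KO libraries lay above and 1 below all WT libraries (log2 change 0.04, SE 0.08, adjusted p = 0.815 by limma). Both genes also have an annotated pseudogene. The structural beta subunits, which have no catalytic site, gave log2 changes of 0.19 for Psmb4, 0.16 for Psmb2, 0.12 for Psmb1 and 0.03 for Psmb3.

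The promoter sequences of 4 members are shown because these genes span the range of change: Psmb6, the called gene; Psmb5, its catalytic partner near 0; Psmd14, the highest change; and Psmd5, the lowest. Each is the 160 bases before the RefSeq start (GRCm38.p6), written 5′ to 3′ on the gene's strand, with motif matches in capitals.
Psmb6, chr11:70525197-70525356, plus strand: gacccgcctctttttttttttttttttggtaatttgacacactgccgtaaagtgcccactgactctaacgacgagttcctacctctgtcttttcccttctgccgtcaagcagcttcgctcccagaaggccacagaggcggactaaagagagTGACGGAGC
Psmb5, chr14:54617996-54618155, minus strand: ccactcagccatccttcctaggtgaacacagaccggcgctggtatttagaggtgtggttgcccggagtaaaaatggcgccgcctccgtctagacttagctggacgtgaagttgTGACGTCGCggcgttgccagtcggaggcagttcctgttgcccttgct
Psmd14, chr2:61711534-61711693, plus strand: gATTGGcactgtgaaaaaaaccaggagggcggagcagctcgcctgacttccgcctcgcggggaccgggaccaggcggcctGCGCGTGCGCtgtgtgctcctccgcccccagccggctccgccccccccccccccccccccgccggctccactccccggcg
Psmd5, chr2:34870963-34871122, minus strand: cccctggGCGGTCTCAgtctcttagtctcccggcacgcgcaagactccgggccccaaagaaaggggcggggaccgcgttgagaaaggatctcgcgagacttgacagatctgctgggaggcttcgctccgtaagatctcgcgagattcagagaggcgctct
The capitals in Psmb6 and Psmb5 mark TGANNNNGC, the core of the antioxidant response element that Nfe2l1 and Nfe2l2 are known to bind, 9 and 47 bases before the start. The same core lies on the opposite strand in Psmd5, 153 bases before the start. In Psmd14 the capitals mark CCAAT, the NF-Y box, on the opposite strand at 159 bases before the start, and GCGC followed after any 2 bases by GCGC, of the nuclear respiratory factor type and the same on both strands, at 80 bases before it. So the called gene and both the near-0 and the lowest member hold the antioxidant core in the printed stretch. Windows of 250 bases before to 50 after the start were found for 33 of the 39 members, some with more than 1 start, 36 windows in all. On either strand TGANNNNGC was in 55.6% of the member windows and in 41.3% of all 32851 windows of the same length in the genome. The GCGC pair was in 16.7% against 6.23%, CCAAT in 33.3% against 37.4%, and GAAA followed after any 2 bases by GAAA, the core of the interferon-stimulated response element, in 11.1% (4 windows) against 3.44%. These 4 were the motifs searched, and matches of different motifs were counted apart where they overlapped. A match describes letters in the window and not a bound site.

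The alpha ring genes had changes of like size. For all 7 the log2 change lay between 0.14 and 0.23, with a median of 0.19, and none passed (limma, adjusted p from 0.0791 to 0.351). At an unadjusted p under 0.05, 3 were higher and 0 lower, against 12.2% and 14.4% of all genes. Psma1 had the largest change of the ring, with 4.26 at the lowest, 4.53 at the median and 4.88 at the highest in KO libraries, and 4.35, 4.21, 4.28, 4.46 and 4.16 log2 CPM in WT libraries. Its KO libraries were above all WT libraries in 5 of 7 cases, with a log2 change of 0.23 (SE 0.09, adjusted p = 0.123 by limma). Psma7 had the smallest p of the ring, at 0.19 (SE 0.07, adjusted p = 0.0791) and 6 of 7 KO libraries above all WT libraries. The changes of the others were 0.22 for Psma5, 0.20 for Psma4, 0.18 for Psma3 and for Psma6, and 0.14 for Psma2. KO replicate 4 was the high library of the ring, whose mean deviation from WT was 0.52 log2 in that library and between -0.02 and 0.23 in the other 6 KO libraries.

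**Figure D2:**
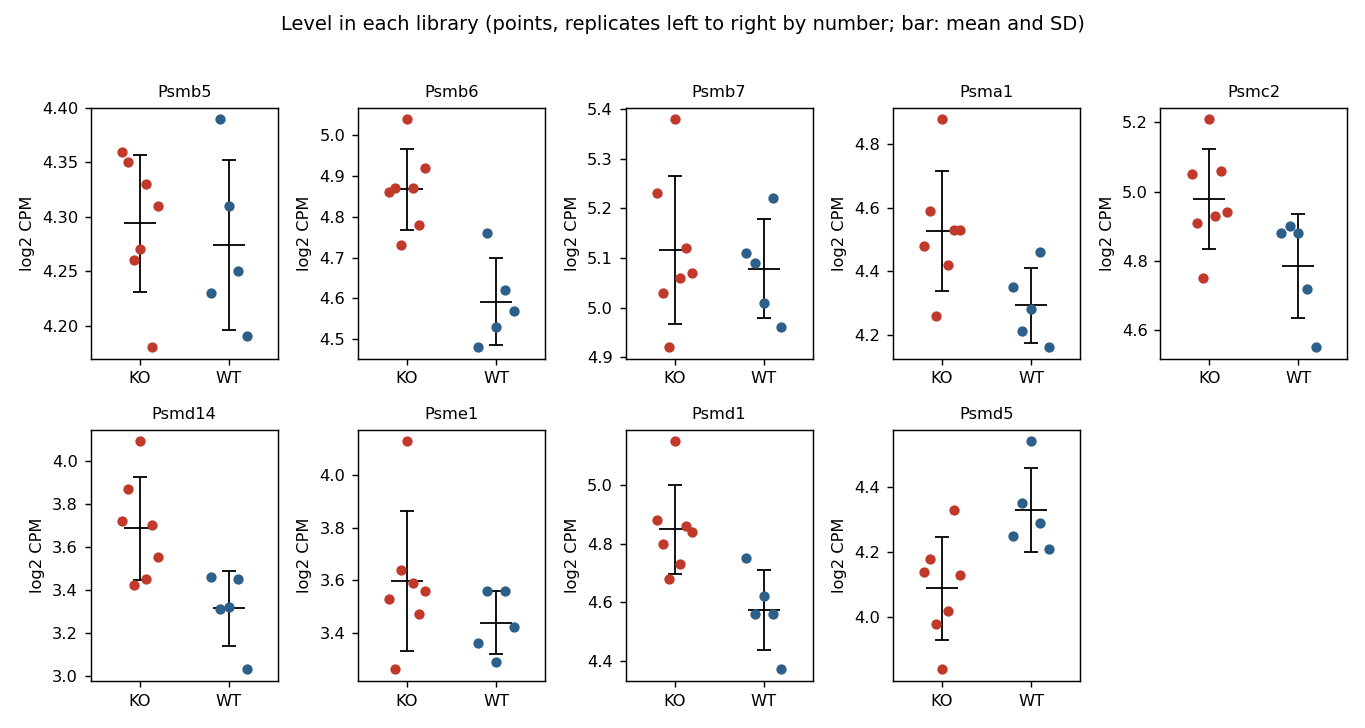
Level of 9 subunit genes in log2 CPM on the vertical axis, with KO libraries left and WT libraries right in each panel. Points are libraries in order of replicate number, and bars are the mean and SD; Psmb6 has 6 of 7 KO libraries above all WT libraries, and Psmd5 has 6 of 7 below.

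The 6 ATPases of the 19S cap, which unfold the substrate, gave 0 higher and 0 lower by limma, and their median log2 change was 0.06. At an unadjusted p under 0.05, 1 was higher and 0 lower, against 12.2% and 14.4% of all genes. Psmc2 had the largest change, with 4.75 at the lowest, 4.94 at the median and 5.21 at the highest in KO libraries, and 4.88, 4.90, 4.88, 4.72 and 4.55 log2 CPM in WT libraries. In 6 of 7 KO libraries it lay above all WT libraries, and WT replicate 5 was the low library (log2 change 0.19, SE 0.09, adjusted p = 0.165 by limma). Psmc4 followed at 0.13 and Psmc3 at 0.08. The changes of Psmc1, Psmc6 and Psmc5 were 0.04, 0.04 and 0.02.

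Genes of the 19S non-ATPase subunits and their assembly factors had both the highest and the lowest change of all members, although none of the 14 passed by limma. At an unadjusted p under 0.05, 4 of them were higher and 1 lower in KO, against 12.2% and 14.4% of all genes. Psmd14, the deubiquitinase that removes the ubiquitin chain, lies on chromosome 2 from 61711694 to 61800376. It held 3.42 at the lowest, 3.70 at the median and 4.09 at the highest in KO libraries, and 3.46, 3.31, 3.32, 3.45 and 3.03 log2 CPM in WT libraries. Its KO libraries lay above all WT libraries in 5 of 7 cases, with replicates 3 and 5 among the WT values, and the log2 change was 0.37 (SE 0.12, adjusted p = 0.0613 by limma), or 1.29-fold. It passed with lactation day as a covariate (0.0357), in a fit with a replicate block that drops KO replicates 6 and 7 (0.046), and without KO replicate 3 (0.0394) or KO replicate 5 (0.043).

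Psmd1, a large scaffold subunit named after its values were seen, came closest to the threshold among the members that did not pass. It held 4.68 at the lowest, 4.84 at the median and 5.15 at the highest in KO libraries, and 4.75, 4.56, 4.62, 4.56 and 4.37 log2 CPM in WT libraries. Its KO libraries lay above all WT libraries in 5 of 7 cases, with a log2 change of 0.28 (SE 0.09, adjusted p = 0.0537 by limma). It passed with lactation day as a covariate (0.0299), after cyclic loess (0.0475), with library weights (0.049), and without KO replicate 3 (0.0391) or KO replicate 5 (0.0484). Psmd2, the other large scaffold, was at 0.03 (SE 0.07, adjusted p = 0.85).

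Psmd5, a chaperone that holds part of the ATPase ring during assembly and leaves before the cap is complete, was also named after its values were seen. It held 3.84 at the lowest, 4.13 at the median and 4.33 at the highest in KO libraries, and 4.25, 4.35, 4.54, 4.29 and 4.21 log2 CPM in WT libraries. It was low in KO, below all WT libraries in 6 of 7 cases, with KO replicate 6 among the WT values (log2 change -0.24, SE 0.09, adjusted p = 0.0941 by limma, or 0.0434 without KO replicate 6). With day 10 libraries alone its change was -0.09 (adjusted p = 0.589). The other assembly chaperones among the members, Psmd9 and Psmd10, had log2 changes of 0.00 and 0.03. Of the lid and other subunits, Psmd3 was at 0.19, Psmd13 at 0.17, Psmd7 at 0.16, Psmd12 at 0.15, Psmd6 at 0.05, Psmd11 at 0.03, Psmd8 at 0.00 and Psmd4, a ubiquitin receptor, at -0.05. Psmd3 was the 1 member called with day 10 libraries alone, as higher in KO, where 164 of all 11834 genes were called higher.

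The 5 genes of activators and the inhibitor gave 0 higher and 0 lower by limma, with a median log2 change of 0.00. None had an unadjusted p under 0.05 either, against 12.2% of all genes higher and 14.4% lower. Psme1, which with Psme2 forms an interferon-inducible activator ring, had the largest change of this group. It held 3.26 at the lowest, 3.56 at the median and 4.13 at the highest in KO libraries, and 3.36, 3.56, 3.29, 3.56 and 3.42 log2 CPM in WT libraries. KO replicate 4 stood highest and KO replicate 2 lowest of all 12 libraries, and the groups overlapped (log2 change 0.16, SE 0.12, adjusted p = 0.409 by limma). Without KO replicate 4 its change was 0.07. Psme2 had a log2 change of 0.09. Psme3, which encodes a nuclear activator, was at 0.00, and Psme4, a large activator known for its role with acetylated histones, was at -0.08. Psmf1, which encodes an inhibitor of the isolated core, had a change of 0.00.

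The sub-complexes were high or low in many of the same libraries. The mean deviation of all 39 members from their WT means was 0.17, 0.07, -0.05, 0.26, 0.04, 0.13 and 0.10 log2 in KO replicates 1 to 7, and 0.00, 0.04, 0.05, -0.01 and -0.08 in WT replicates 1 to 5. KO replicate 4 was highest and WT replicate 5 lowest, 5 of 7 KO libraries lay above all WT libraries, and KO replicate 3 lay among the WT values. Of the 5 sub-complexes 4 had their highest mean deviation in KO replicate 4, the exception being the non-ATPase genes with KO replicate 1 at 0.17. KO replicate 4, the day 11 library, held the highest value of all 12 libraries for 21 of the 39 members (53.8%), and for 15% of all genes. KO replicate 3, the day 8 library, held the lowest KO value for 24 of the 39. Of the WT libraries, replicate 3, also of day 11, was the highest of its group for 13 members, and replicate 5, of day 10, the lowest for 18. For the counts of 24, 13 and 18 the share over all genes was not computed. With 1 KO library each on days 8 and 11, day and library cannot be told apart. In KO replicate 4 the muscle markers also stood highest of all 12 libraries at 2.83 log2 above the WT mean, as did fibroblast markers at 1.28, and in KO replicate 3 they deviated by 1.09 and 0.00. With lactation day as a covariate 4 members were called higher (Psma7, Psmb6, Psmd1 and Psmd14) and 0 lower. Of all 11834 genes 644 were called higher and 627 lower in that fit.

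**Figure D3:**
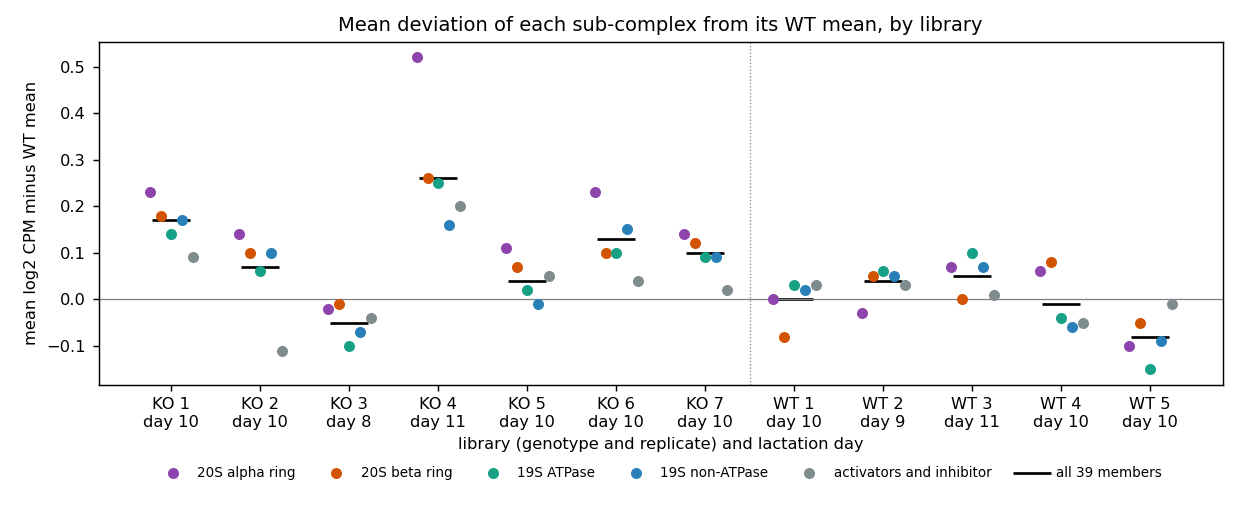
Mean deviation in log2 CPM from the WT mean, on the vertical axis, for each of 5 sub-complexes (coloured points) and for all 39 members (black bar) in each library, KO left and WT right, with the lactation day under each. KO replicate 4 stands highest, with the alpha ring at 0.52, and KO replicate 3 lies at -0.05, among the WT libraries.

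The members varied less within a group than all genes did, and only slightly less than genes of like level. The median SD of a member was 0.139 log2 between KO libraries and 0.108 between WT libraries, against 0.223 and 0.189 over all genes. Of the members 31 have a mean between 4 and 5.5 log2 CPM, and over all 2330 genes in that band the median SD was 0.151 in KO and 0.131 in WT. The SD was larger in KO than in WT for 28 of 39 members (71.8%), against 63.1% of all genes and 60.4% of genes in that band.

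Levels were compared between genes per length, as log2 CPM per kb of the principal transcript in GENCODE M21. By this measure the beta ring genes had a median of 4.68 in KO and 4.53 in WT glands, and the alpha ring genes 4.26 in KO and 4.03 in WT. ATPase genes lay at 4.13 in KO and 4.02 in WT, and non-ATPase genes at 3.64 in KO and 3.49 in WT. Psma7 had the highest level of all members, at 5.43 ± 0.11 in KO and 5.24 ± 0.06 in WT (SD, n = 7 and 5), and Psmb6 followed at 5.19 ± 0.10 in KO and 4.92 ± 0.11 in WT. The low end held Psmf1, at 0.85 ± 0.14 in KO and 0.85 ± 0.28 in WT, and the assembly chaperones: Psmd9 was at 1.01 ± 0.12 in KO and 1.00 ± 0.19 in WT, Psmd10 at 1.50 ± 0.17 in KO and 1.48 ± 0.08 in WT, and Psmd5 at 1.95 ± 0.16 in KO and 2.19 ± 0.13 in WT. The core 20S subunits, which occur in equal numbers in the particle, ran from 3.44 to 5.43 in KO and from 3.30 to 5.24 in WT. Lowest among them were Psma2 and Psma3, with long transcripts of 2911 and 2846 bases. Before scaling by length these 2 genes averaged 4.98 and 5.05 log2 CPM in KO and 4.84 and 4.86 in WT. Some neighbours in the order, such as Psmb7 and Psmb3, differed by no more than the larger SD, at 4.90 ± 0.15 and 4.78 ± 0.13 in KO and at 4.86 ± 0.10 and 4.75 ± 0.11 in WT. The lengths are those of 1 transcript per gene, the longest where more than 1 was equally ranked as principal. The transcript made in the gland was not measured here, so the order of levels depends on that choice.

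**Figure D4:**
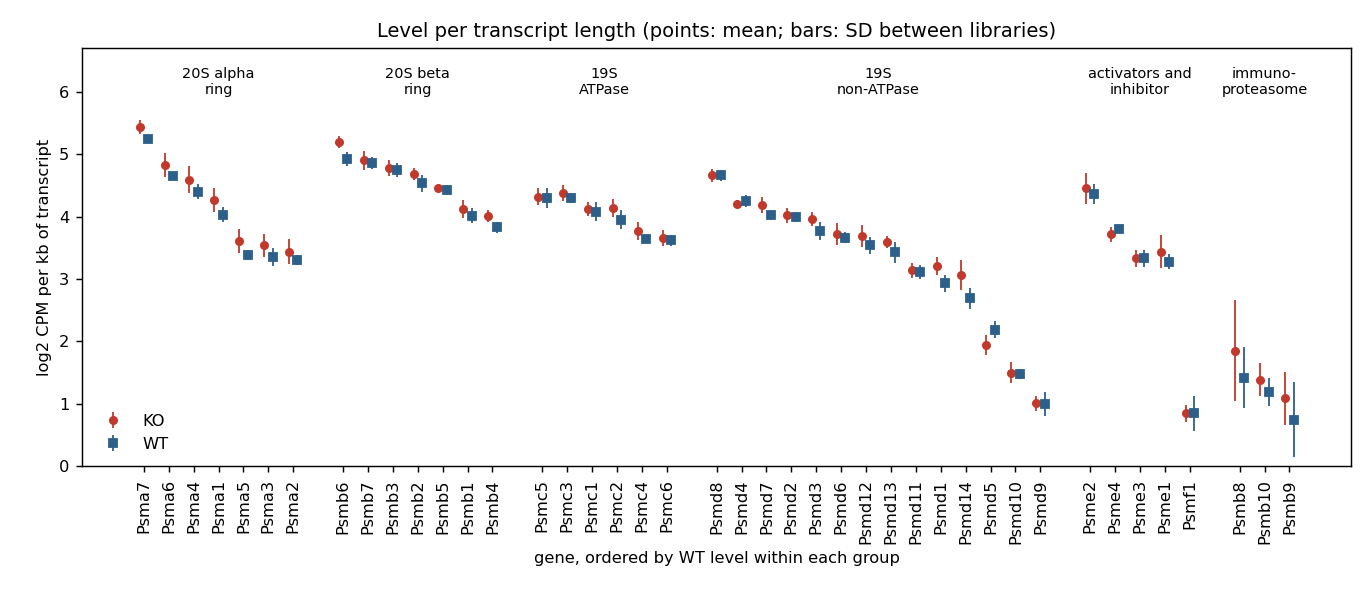
Level per transcript length in log2 CPM per kb (vertical axis) of the 39 subunit genes and of the 3 immunoproteasome genes, ordered by WT level within each group. Circles left are KO means, squares right are WT means, and bars are SD between libraries; Psma7 and Psmb6 lie highest, while assembly chaperones, Psmf1 and the immunoproteasome genes lie lowest.

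The immunoproteasome genes are known to be induced by interferon, and their products take the place of the constitutive catalytic subunits. By limma 0 of 3 were higher and 0 lower. None had an unadjusted p under 0.05, against 12.2% of all genes higher and 14.4% lower. Psmb8 held 1.89 at the lowest, 2.31 at the median and 4.30 at the highest in KO libraries, and 1.54, 2.14, 1.83, 2.83 and 2.28 log2 CPM in WT libraries. KO replicate 4 was the high library and the other 6 KO libraries lay within the WT range (log2 change 0.43, SE 0.37, adjusted p = 0.491 by limma). Without KO replicate 4 the change was 0.14. The changes of Psmb9 and Psmb10 were 0.34 (SE 0.26) and 0.20 (SE 0.15), with adjusted p of 0.433 and 0.415. When 1 library was left out, Psmb9 ran from 0.16 (without WT replicate 3) to 0.55 (without WT replicate 4), and Psmb10 from 0.13 (without KO replicate 4 or WT replicate 1) to 0.28 (without WT replicate 4). Per length, these genes lay at 1.85 ± 0.81 (Psmb8), 1.09 ± 0.42 (Psmb9) and 1.39 ± 0.27 (Psmb10) log2 CPM per kb in KO glands, and at 1.42 ± 0.49, 0.75 ± 0.60 and 1.19 ± 0.23 in WT glands. Their constitutive counterparts Psmb5, Psmb6 and Psmb7 lay at 4.45 ± 0.06, 5.19 ± 0.10 and 4.90 ± 0.15 in KO glands, and at 4.43 ± 0.08, 4.92 ± 0.11 and 4.86 ± 0.10 in WT glands.

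The balance between the replaceable subunits was set out as the difference of both genes within a library. For Psmb8 over Psmb5 it averaged -1.74 ± 0.82 log2 in KO and -2.15 ± 0.50 in WT (SD, n = 7 and 5), a difference of 0.41 (exact permutation, two-sided, p = 0.409, adjusted over 3 pairs 0.614). KO replicate 4 was at 0.03, and the other KO libraries ran from -2.45 to -1.61. For Psmb9 over Psmb6 the averages were -3.34 ± 0.38 in KO and -3.41 ± 0.57 in WT, a difference of 0.06 (exact permutation p = 0.828, adjusted 0.828). For Psmb10 over Psmb7 they were -3.33 ± 0.23 in KO and -3.50 ± 0.20 in WT, a difference of 0.17 (exact permutation p = 0.222, adjusted 0.614). None of the 3 differences exceeded the spread between libraries, and the smallest p this design allows is 0.00126.

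**Figure D5:**
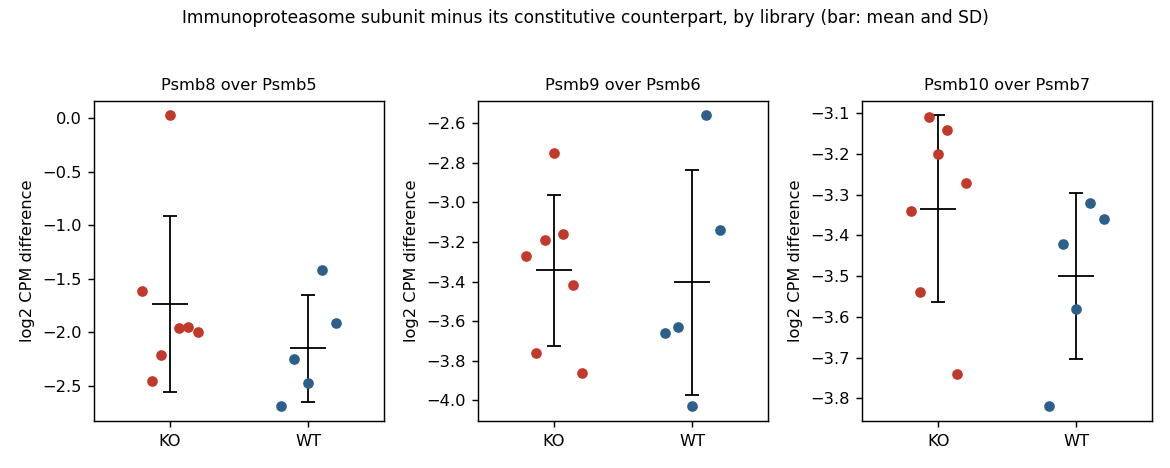
Log2 CPM of an immunoproteasome subunit minus that of its constitutive counterpart (vertical axis), for 3 pairs, with KO libraries left and WT libraries right. Points are libraries and bars are the mean and SD; KO replicate 4 lies at 0.03 for Psmb8 over Psmb5, above all others, and the groups overlap in all 3 panels.

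Genes that work with the proteasome were counted in the same way. Of 16 measured genes of proteasome-bound proteins 1 rose and 1 fell, and over all genes 4.84% were called higher and 4.52% lower. Zfand2a, a stress-induced protein that binds the 19S cap, had 2.79 at the lowest, 3.07 at the median and 3.41 at the highest in KO libraries, and 2.33, 2.50, 2.43, 2.52 and 2.52 log2 CPM in WT libraries. No WT library reached the lowest KO library, with a log2 change of 0.63 (SE 0.11, adjusted p = 0.00415 by limma). Ubqln4, a shuttle factor that carries ubiquitinated proteins to the proteasome, had 4.18 at the lowest, 4.40 at the median and 4.56 at the highest in KO libraries, and 4.85, 4.88, 4.75, 4.84 and 4.77 log2 CPM in WT libraries. Each KO library lay below each WT library (log2 change -0.41, SE 0.07, adjusted p = 0.00484 by limma). Both calls held in all alternatives tried, including day 10 libraries alone (adjusted p = 0.0237 for Zfand2a and 0.0375 for Ubqln4). Zfand2b, a relative of Zfand2a, was at -0.27 (adjusted p = 0.103).

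Of 6 measured genes of assembly and related factors, namely Psmg1, Psmg2, Psmg3, Pomp, Akirin2 and AI314180, 0 were higher and 0 lower by limma at an adjusted p under 0.05. At an unadjusted p under 0.05, 1 was higher and 0 lower, against 12.2% and 14.4% of all genes. The higher gene was Pomp, the maturation factor of the core, at 4.87 ± 0.18 log2 CPM in KO and 4.62 ± 0.12 in WT (log2 change 0.25, SE 0.09, adjusted p = 0.0942). Psmg1 and Psmg3, chaperones of alpha ring assembly, were at -0.24 and 0.15, and Akirin2, which guides nuclear import of the proteasome, at 0.13. Of 11 genes of ubiquitin and its activating enzymes 0 passed. At an unadjusted p under 0.05, 2 were higher and 0 lower, set against the same shares of all genes. Ubb, a polyubiquitin gene, averaged 7.37 ± 0.43 log2 CPM in KO and 6.87 ± 0.31 in WT, a change of 0.50 (SE 0.20, adjusted p = 0.132). It passed without KO replicate 6 (adjusted p = 0.0414). Ubb and Rps27a share ubiquitin sequence, so the split of reads between them is uncertain. Sae1, of an activating enzyme for ubiquitin-like proteins, was at 0.17, and Rps27a, a ubiquitin and ribosomal protein fusion, was at 0.10.

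The regulators of proteasome genes did not pass either. Of 13 genes around Nfe2l1, 0 were called. At an unadjusted p under 0.05, 3 were higher and 1 lower, against 12.2% and 14.4% of all genes. Vcp, the segregase that extracts proteins from membranes for degradation, was at 0.20 (SE 0.08, adjusted p = 0.11), Sel1l, of the endoplasmic reticulum ubiquitin ligase, at 0.26 (SE 0.12, adjusted p = 0.169), and Mafg, a small Maf partner, at 0.25 (SE 0.11, adjusted p = 0.172). Herpud1, an organizer of that ligase, was at -0.35 (SE 0.13, adjusted p = 0.109). Nfe2l1 itself, named here for its role and not by its p, averaged 5.78 ± 0.13 log2 CPM in KO and 5.87 ± 0.17 in WT (log2 change -0.09, SE 0.08, adjusted p = 0.512), and Nfe2l2 5.22 ± 0.24 in KO and 5.11 ± 0.38 in WT (0.11, SE 0.16, adjusted p = 0.702). Of 13 heat shock and ubiquitin stress genes 1 rose and 0 fell by limma, against 4.84% and 4.52% of all genes. At an unadjusted p under 0.05, 2 were higher and 1 lower, against 12.2% and 14.4%. Hspb1, a small heat shock protein, averaged 2.52 ± 0.31 log2 CPM in KO and 1.95 ± 0.20 in WT, and 6 of 7 KO libraries exceeded every WT library (log2 change 0.57, SE 0.15, adjusted p = 0.0296 by limma). Its call ended when any 1 was left out of KO replicates 1, 2 and 7 and WT replicates 1, 2, 4 and 5, where adjusted p ran up to 0.0833, and with the muscle score as a covariate (0.11). Hsf1, the heat shock transcription factor, was at -0.39 (SE 0.14, adjusted p = 0.0917), Hspa8, a constitutive chaperone, at 0.26 (SE 0.12, adjusted p = 0.2), and Hspa1b, an inducible one, at 0.47 (SE 0.21, adjusted p = 0.179). Its near-identical copy Hspa1a, named after its values were seen, was at -0.49 (SE 0.25, adjusted p = 0.226), so the split of reads between both copies is uncertain.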

How the data were processed

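PolyA RNA from 12 mammary glands was sequenced as pairs from Illumina TruSeq mRNA libraries, per the labels. The submitters' processing notes name limma 3.34.5, RSEM 1.3.0, STAR 2.5.2b, Trimmomatic 0.33 and bcl2fastq 2.17, and the builds mm10 and hg19 without a role. The authors deposited 1 table of log2 CPM values whose distributions match between libraries, as after quantile normalization: linear sums lay between 988803 and 988808, and 67.1% of ranks differed by less than 0.01 log2. Such scaling fixes the overall distribution, so only relative changes can be read. The deposited table also holds the authors' log2 fold changes, a signed linear fold, a score (the moderated t statistic) and the authors' p-values. Depth per library is unknown, so no counting interval is given.

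The log2 values were fitted by genotype alone over all 11834 genes with limma 3.58.1 in R 4.3.3 (eBayes with trend and robust, two-sided, Benjamini-Hochberg, called at an adjusted p under 0.05), and the procedure was tested on simulated data. SE are from that fit and SD are between libraries. The 3 subunit pairs were tested by exact permutation. Full values were given for the catalytic subunits, called members and the largest change of each sub-complex, and up to 4 genes of smallest adjusted p were named per related list, of which some are not reported here. Members, lists and tests were chosen with earlier results of these data known. Coordinates and lengths are from GENCODE M21, promoters from RefSeq. Python 3.11.15 and matplotlib 3.10.9 drew the figures.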

Additional observations from a re-analysis of the deposited data

Results flagged for a closer look

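Dixon's ratio at the 95% level was applied to 140 groups of values, each gene or score within KO or within WT, and 9 had a library apart from its group; chance gives about 5% of groups. KO replicate 4 accounts for 7 of them. In that library Psma5 was at 4.32 log2 CPM (next highest KO library 3.95), Psmb1 at 5.23 (4.95), Psmd1 at 5.15 (4.88), Pomp at 5.25 (4.87) and Psmb8 at 4.30 (2.75). Its difference of Psmb8 over Psmb5 was 0.03 log2 (next highest -1.61), and its Hsf1 level was the lowest at 1.72 (next lowest 2.39). The skeletal muscle and fibroblast marker scores of KO replicate 4 were 2.83 and 1.28, and their part in these values was not tested. In WT, Psme2 stood high in replicate 4 at 4.57 (next 4.27) and Btn1a1 in replicate 3 at 11.23, where the other 4 WT libraries share the rank value 11.03.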

How the results depend on the processing

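The count of subunit genes called higher in KO was 1 of 39, where 573 of all 11834 genes (4.84%) were called higher. It became 4 with lactation day as a covariate (644 of all genes higher), and 2 after cyclic loess (653) and with library weights (695). It was 0 with the muscle score as a covariate (177) and at an adjusted p under 0.01, where the count over all genes is not given. When 1 library was left out it was 0 without WT replicates 1, 3 or 5 (316, 402 and 369 of all genes higher). It was 4 without KO replicate 3 (575 of all genes higher) and 3 without KO replicate 5 (640). The count called lower, 0, was 1 (Psmd5) without KO replicate 6 (657 of all genes lower) and 0 in all other alternatives. With a replicate block over KO and WT replicates 1 to 5 the count stayed at 1, but the gene was Psmd14 and not Psmb6 (adjusted p = 0.0612), and Hspb1 lost its call (0.0983) while Ubb gained one (0.0115); over all genes 1090 were called against 1108. The labels do not say that a number marks a shared litter or day, and deviations of same-numbered libraries correlated at -0.16, 0.00, -0.17, 0.21 and 0.08. The median log2 change of the members stayed between 0.07 and 0.15 in all alternatives, and between 0.07 and 0.13 when 1 library was left out; members above 0, a count chosen after seeing the data, numbered between 30 and 36. The difference of Psmb8 over Psmb5 ran from 0.12 to 0.59 when 1 library was left out, that of Psmb10 over Psmb7 from 0.09 to 0.23, and that of Psmb9 over Psmb6 from -0.09 to 0.27. The last was -0.37 with day 10 libraries alone, -0.04 without KO replicate 4, -0.09 without WT replicate 3 and 0.00 (below zero before rounding) without WT replicate 1. The sign also turned for Psmb9 (-0.07) and Akirin2 (-0.02) with day 10 libraries alone, for Psmb8 (-0.01) with the muscle covariate and for Psmb7 (-0.01) without KO replicate 4; none of these was called. Genes called over the table numbered 268 with day 10 libraries alone, 274 with the muscle covariate and 559 without WT replicate 1. The cause of these shifts was not tested. No pseudocount was needed on log2 values, and no fit without a filter could be made, since the table is used as the authors listed it and genes outside it are not analysed here.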
